A study of Arabidopsis thaliana with 9 samples.

Results

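The enzymes that bring ammonium into amino acids in Arabidopsis thaliana are encoded by 9 of the 32678 genes counted, 6 glutamine synthetases and 3 glutamate synthases. They were chosen by locus identifier as the rows GLN1;1 (AT5G37600), GLN1;2 (AT1G66200), GLN1;3 (AT3G17820), GLN1;4 (AT5G16570), GLN1;5 (AT1G48470), GLN2 (AT5G35630), GLU1 (AT5G04140), GLU2 (AT2G41220) and GLT1 (AT5G53460), and all 9 were found. RNA was sequenced from whole 7-day-old seedlings grown in constant light on 2.5 mM ammonium succinate as the only nitrogen source, about 10 seedlings pooled per library and 3 libraries per group. The icpk seedlings received 10 mM KNO3 for 15 min, wild type seedlings received 10 mM KNO3 for 15 min, and wild type seedlings received 10 mM KCl for 15 min. The icpk line is a triple mutant of CPK10, CPK30 and CPK32, kinases that calcium switches on, and expresses CPK10(M141G), a form that a small molecule can block. That inhibitor was given at 10 µM for 2 min before the salts in part of the work, per the protocol, and no label ties it to particular samples. Since icpk with KCl was not analysed here, a contrast of icpk with wild type under KNO3 cannot be told apart from one already there before nitrate, or from one the inhibitor brought. Separate cultures are not stated for libraries of 1 group, so the p-values cover only the spread among these samples, and that spread may be technical.

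Glutamine synthetase joins ammonium to glutamate and makes glutamine. Glutamate synthase then moves the amide nitrogen of glutamine to 2-oxoglutarate and so returns glutamate to the cycle. The GLN1 enzymes work in the cytosol and GLN2 in the plastid, where it recaptures the ammonium that photorespiration releases. GLU1 and GLU2 take their electrons from ferredoxin, GLU1 being the main form in leaves, while GLT1 takes them from NADH and is known mostly from roots and other non-green tissue. Among the cytosolic enzymes, GLN1;1 and GLN1;4 are known for a high affinity for ammonium and GLN1;2 and GLN1;3 for a low affinity.

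The cytosolic genes are close relatives, so their coding sequences are shown where a read is hardest to assign. The stretch around the longest run that any pair of them shares, 72 bases from position 878 of the GLN1;1 coding sequence, is given 5′ to 3′ for all 5 in transcript sense, from RefSeq's annotation of TAIR10.1. Capitals mark bases unlike GLN1;1.
GLN1;1: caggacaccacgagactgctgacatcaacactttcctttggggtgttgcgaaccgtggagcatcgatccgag
GLN1;2: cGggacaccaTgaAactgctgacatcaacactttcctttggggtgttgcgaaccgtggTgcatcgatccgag
GLN1;3: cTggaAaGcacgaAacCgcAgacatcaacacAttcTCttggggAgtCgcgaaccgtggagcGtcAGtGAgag
GLN1;4: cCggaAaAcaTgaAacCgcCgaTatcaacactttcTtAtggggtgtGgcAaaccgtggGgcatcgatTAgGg
GLN1;5: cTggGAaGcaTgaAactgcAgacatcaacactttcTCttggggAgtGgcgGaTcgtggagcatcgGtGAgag
GLN1;2 differs from GLN1;1 at 4 bases of this stretch, and the other 3 genes each differ at 16. The run common to the first pair is 44 bases long, which is shorter than a 50-base read. Over the whole coding sequence, that pair is identical at 87.5% of aligned bases, GLN1;1 and plastid GLN2 at 71.8%, and GLU1 and GLU2 at 76.9%. In the RefSeq transcript used for each gene, 0 of 1539 windows of 50 bases of GLN1;1, and 0 in every other member, occur exactly in another of the 9 transcripts. The sources used here do not give the mismatches allowed in alignment, so counts of close paralogs carry that uncertainty.

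The libraries held 5987352 to 19564785 counts in genes, the fewest in wild type KCl replicate 3, in which 80.5% of records aligned at more than 1 place. The kinases checked the icpk label. CPK30 stood at 3.39 ± 0.484 CPM in icpk and 27.5 ± 1.11 CPM in wild type with KNO3, and CPK32 at 21.3 ± 3.34 and 206 ± 6.86 CPM (adjusted p = 5.19e-06 and 6.42e-05). CPK10, of which icpk also expresses the M141G form, stood at 159.7 ± 9.52 CPM in icpk and 90.1 ± 9.79 CPM in wild type with KNO3 (adjusted p = 0.00147). CPM are gene counts scaled to a common total after TMM normalization of library sizes, and a value after ± is the SD of 3 libraries for a level or share and the standard error (SE) for a log2 difference. The 15 shoot photosynthesis markers and 20 root markers were all counted in every library. The summed shoot markers ran from 43094 to 64642 CPM in icpk, 30021 to 43782 CPM in wild type with KNO3 and 48469 to 58554 CPM in wild type with KCl. The summed root markers ran from 298 to 379.9 CPM, 375 to 453 CPM and 321 to 369 CPM in the same order. The ranges of icpk and wild type with KNO3 overlapped narrowly for each list, while those of wild type with KNO3 and KCl did not overlap. In icpk edgeR called 3 of 15 shoot markers higher and 5 of 20 root markers lower than in wild type with KNO3. Over all genes tested the shares were 11.3% and 11.4%. DESeq2 called 12 and 5, and limma voom 8 and 5. With nitrate edgeR called 1 of 15 lower and 1 of 20 higher, against 2.39% and 3.56% of all genes tested. DESeq2 called 4 and 4, and limma voom 1 and 0. At an unadjusted edgeR p below 0.05, 12 shoot markers were higher in icpk, and 7 root markers lower and 1 higher. With nitrate 8 shoot markers were lower and 5 root markers higher at that threshold. Here and below, the share of all genes at an unadjusted p is not given. The part of these differences in the results was not tested. In whole seedlings fewer cells of a type and less RNA per cell cannot be told apart.

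Per kilobase of exon, GLN1;2 and GLN2 were the most abundant glutamine synthetase transcripts in all 3 groups. The cytosolic one stood at 1319 ± 179 CPM per kb in icpk, 996 ± 113 in wild type with KNO3 and 894 ± 96.4 in wild type with KCl. GLN2 followed at 670.3 ± 109, 543 ± 52.9 and 564 ± 61.5 CPM per kb in those groups. The order of the 2 was the same in every library. GLN1;1 stood at 222 ± 26.4, 456 ± 120.5 and 250.5 ± 28.0 CPM per kb, GLN1;3 at 98.4 ± 17.8, 106 ± 8.56 and 95.6 ± 5.31, and GLN1;4 at 5.98 ± 1.54, 24.9 ± 12.8 and 10.9 ± 1.22. In wild type with KNO3 the spread of GLN1;1 reached that of GLN2: replicate 3 had 566 CPM per kb of GLN1;1 and 519.6 of GLN2, while GLN2 was the higher in the other 8 libraries. The remaining neighbours in this order differed by more than their SDs in every group. Among the glutamate synthases GLU1 led, at 215 ± 21.5 CPM per kb in icpk, 189.8 ± 31.1 in wild type with KNO3 and 218 ± 23.2 in wild type with KCl. GLT1 came next at 99.7 ± 12.7, 148 ± 8.92 and 85.4 ± 8.10 CPM per kb, and GLU2 last at 39.5 ± 4.08, 52.0 ± 5.09 and 40.0 ± 4.44. GLU1 lay above GLT1 in all 9 libraries, by the narrowest margin in wild type KNO3 replicate 3.

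In wild type, transcripts of a cytosolic glutamine synthetase, GLN1;1, and of the NADH-dependent glutamate synthase, GLT1, rose within 15 min of nitrate. GLN1;1 was 1.82-fold and GLT1 1.73-fold higher with KNO3 than with KCl. GLN2 and GLU1, the plastid pair of the photorespiratory cycle, stood at -0.054 ± 0.16 SE and -0.20 ± 0.16 SE on the log2 scale and did not pass the test. Of the 8 members tested, 2 rose and none fell, against 3.56% of all 20288 genes tested called higher and 2.39% called lower (edgeR's quasi-likelihood F-test, adjusted p below 0.05 by Benjamini-Hochberg). At an unadjusted p below 0.05, 4 members were higher and none lower, and DESeq2 called 4 higher and limma voom 2, again with none lower. In both directions together, edgeR called 1207 of all genes, DESeq2 1720 and limma voom 1281. The share of all genes at an unadjusted p is not given here. The 3 libraries with KNO3 lay wholly above the 3 with KCl for 3 of the 8 tested members, GLT1, GLU2 and GLN1;1, and wholly below for none, against 12.3% and 14.1% of all genes tested. The median log2 difference of the 8 was 0.27, against -0.021 over all genes tested.

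In icpk with KNO3, 4 of the 8 tested members stood lower than in wild type with KNO3. They were GLN1;1 at 48.7%, GLN1;4 at 24.1%, GLU2 at 75.9% and GLT1 at 67.5% of the wild type level. With replicate number as a block 3 were called, GLU2 being lost (adjusted p = 0.0567). None was called higher with edgeR (1 at an unadjusted p below 0.05) or with limma voom, and DESeq2 called 1, GLN1;2. Over all genes tested edgeR called 11.4% lower and 11.3% higher. In both directions together, edgeR called 4599 of all genes, DESeq2 4838 and limma voom 4743. The icpk libraries lay wholly below those of wild type with KNO3 for the same 4 members and wholly above for 1, against 19.8% of all genes tested in each direction. The median of the 8 was -0.25, against 0.0070 over all genes tested. Both comparisons use the same 3 libraries of wild type with KNO3, so a high level there raises the first difference and lowers the second.

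**Figure D1:**
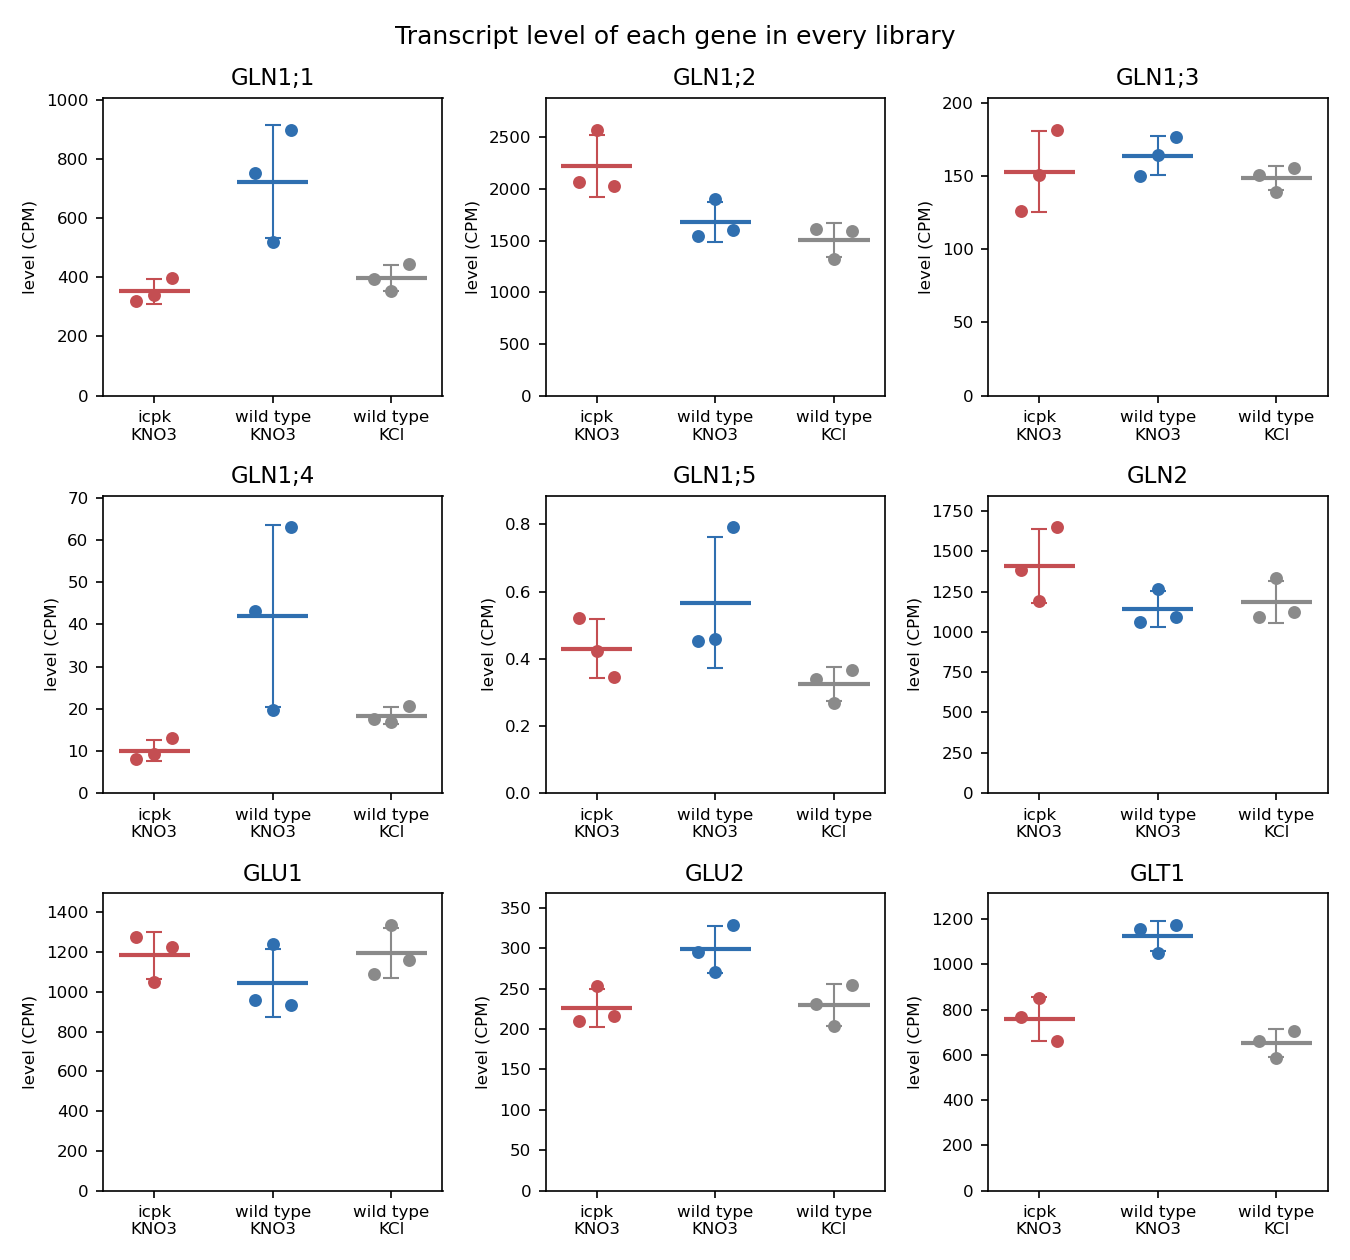
Level of each of the 9 genes in CPM (vertical axes, each from 0) in every library of icpk with KNO3, wild type with KNO3 and wild type with KCl. Points are libraries, wide bars means and thin bars SD of 3 libraries. GLT1 and GLU2 do not overlap between wild type with KNO3 and either other group.

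The cytosolic glutamine synthetases moved unequally. GLN1;1 had 318, 340.0 and 399 CPM in icpk replicates 1, 2 and 3, 752, 519.6 and 899 CPM in those of wild type with KNO3, and 394, 355 and 444 CPM in those of wild type with KCl. All 3 wild type libraries with KNO3 lay above all 6 others, and replicate 2 was the lowest of them. The log2 difference was 0.86 ± 0.19 SE, adjusted p = 0.0246, for nitrate, and -1.04 ± 0.19 SE, adjusted p = 0.00494, for icpk against wild type with KNO3. The nitrate call was lost without replicate 1 (0.0923) or 3 (0.0826) of wild type with KNO3 or replicate 1 (0.0833) or 2 (0.112) of wild type with KCl, and with replicate 3 of each group left out (0.0874), with differences of 0.68 to 1.05 when 1 library was left out. The icpk call held with each library left out in turn, at -1.23 to -0.85.

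GLN1;4, a minor member, had the largest differences of the 8 in both comparisons. It had 8.08, 9.15 and 13.0 CPM in icpk, 43.1, 19.8 and 63.0 CPM in wild type with KNO3 and 17.6, 16.8 and 20.7 CPM in wild type with KCl. The icpk libraries lay below all others, while wild type KNO3 replicate 2 lay within the range of the KCl libraries. In icpk against wild type with KNO3 it fell by 2.05 ± 0.35 SE on the log2 scale (adjusted p = 0.00349), and -2.39 to -1.64 with a library left out. The nitrate difference in wild type, 1.20 ± 0.34 SE, adjusted p = 0.0659, did not pass. It passed without wild type KNO3 replicate 2 (1.54, adjusted p = 0.00143) and with no filter on low counts (0.0425). It also passed with DESeq2 (0.00449) and with replicate number as a block (0.0412). The nitrate difference ran from 0.79 to 1.54 when 1 library was left out.

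GLN1;2, the most abundant member, leaned the other way in icpk. It had 2069, 2571 and 2029.9 CPM in icpk, 1540.3, 1898 and 1601 CPM in wild type with KNO3 and 1609, 1319 and 1591 CPM in wild type with KCl. The icpk libraries were the 3 highest, but the difference from wild type with KNO3 did not pass the test (0.40 ± 0.17 SE, adjusted p = 0.103), and the nitrate difference was 0.16 ± 0.16 SE, adjusted p = 0.648. DESeq2 called the icpk difference (adjusted p = 0.021). GLN1;3 had 126, 151 and 182 CPM in icpk, 150.3, 165 and 177 CPM in wild type with KNO3 and 151, 139 and 156 CPM in wild type with KCl, and the groups overlapped throughout. Its log2 differences were -0.10 ± 0.13 SE, adjusted p = 0.628, for icpk and 0.14 ± 0.13 SE, adjusted p = 0.593, for nitrate. GLN1;5, best known from seeds, was counted 6, 8 and 5 times in icpk, 7, 8 and 12 times in wild type with KNO3 and 7, 4 and 2 times in wild type with KCl. In CPM the libraries of wild type with KNO3 lay above those with KCl, at 0.452, 0.459 and 0.791 against 0.340, 0.267 and 0.367. The gene did not pass the filter on low counts and was not tested, and a difference between the groups was not detectable at this depth.

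Plastid GLN2 had 1381, 1195 and 1649 CPM in icpk, 1063, 1268 and 1092 CPM in wild type with KNO3 and 1094, 1332 and 1126 CPM in wild type with KCl. The ranges overlapped between all groups, icpk replicate 3 being the highest. The differences were 0.30 ± 0.16 SE, adjusted p = 0.202, for icpk and -0.054 ± 0.16 SE, adjusted p = 0.897, for nitrate. GLU1, its partner in the plastid, had 1276, 1049.9 and 1223 CPM in icpk, 957, 1239.7 and 932 CPM in wild type with KNO3 and 1089, 1337 and 1162 CPM in wild type with KCl. Wild type KNO3 replicates 1 and 3 were the 2 lowest libraries for GLU1, while replicate 2 lay within the range of the other groups. The GLU1 differences were 0.18 ± 0.16 SE, adjusted p = 0.451, for icpk and -0.20 ± 0.16 SE, adjusted p = 0.533, for nitrate.

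The other glutamate synthases stood highest in wild type with KNO3. GLT1 had 769, 852 and 659 CPM in icpk, 1154, 1048 and 1174 CPM in wild type with KNO3 and 663, 584 and 706 CPM in wild type with KCl. No library of icpk or of wild type with KCl reached the lowest one of wild type with KNO3. The nitrate difference (0.79 ± 0.14 SE, adjusted p = 0.00769) kept its call with each library left out in turn, with adjusted p from 0.00473 to 0.0476. In icpk GLT1 stood lower (-0.57 ± 0.14 SE, adjusted p = 0.017). That call was lost without wild type KNO3 replicate 1 (0.0607) and with replicate 3 of each group left out (0.113).

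GLU2, the minor ferredoxin-dependent form, had 210.1, 253 and 216 CPM in icpk, 296, 270.5 and 329 CPM in wild type with KNO3 and 231, 203 and 254 CPM in wild type with KCl. The KNO3 libraries of wild type lay above all others here too. The icpk difference was -0.40 ± 0.13 SE, adjusted p = 0.0436, close to the threshold. It did not pass with replicate number as a block (-0.39, adjusted p = 0.0567), with the 6 libraries of the comparison alone (0.0557), without replicate 1 (0.109) or 3 (0.104) of icpk, replicate 1 (0.105) or 3 (0.137) of wild type with KNO3 or replicate 1 (0.06) of wild type with KCl, or with replicate 3 of each group left out (0.217). The nitrate difference, 0.38 ± 0.13 SE, adjusted p = 0.11, passed with DESeq2 only (0.0309).

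**Figure D2:**
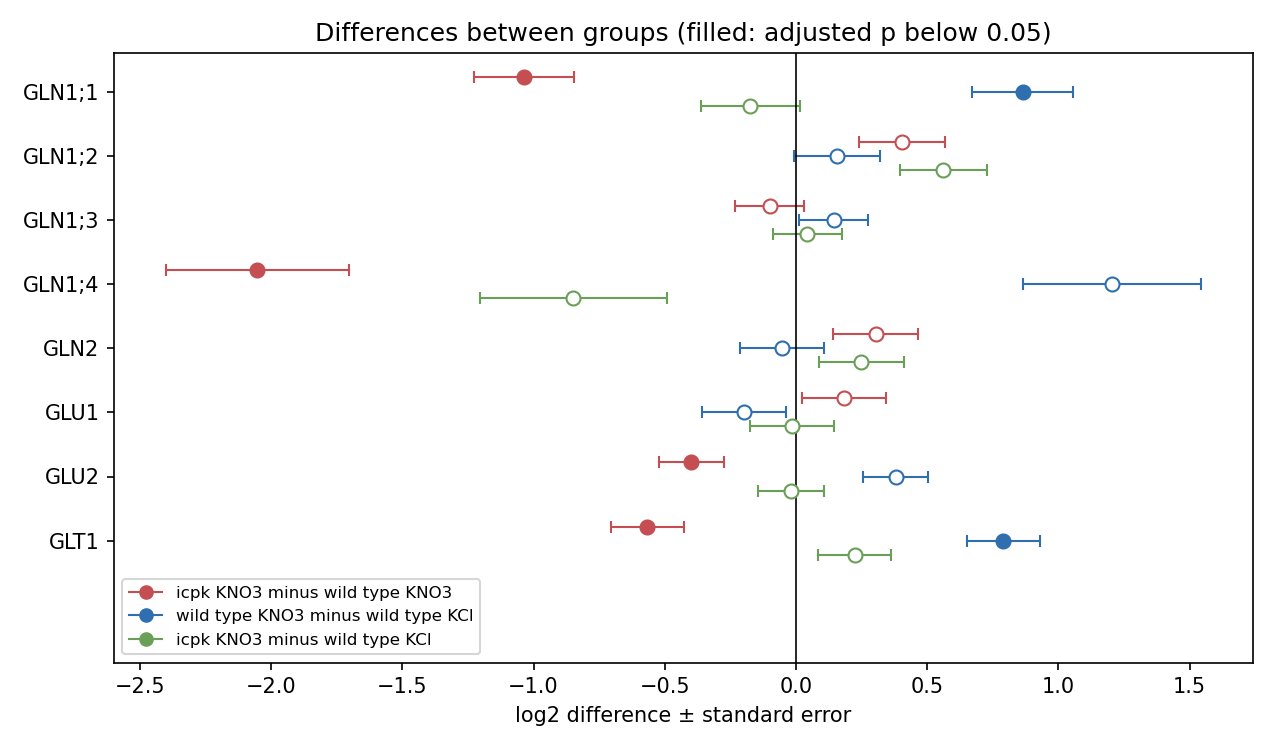
Log2 difference of the 8 tested genes (horizontal axis, points with standard errors) for icpk minus wild type with KNO3, wild type KNO3 minus KCl, and icpk with KNO3 minus wild type with KCl. Filled points passed an adjusted p below 0.05. The 4 members called lower in icpk lie right of 0 for nitrate and left of 0 for icpk against wild type with KNO3, and no member passed in the third comparison.

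Levels in icpk with KNO3 were also set against those of wild type with KCl, which had no nitrate. With edgeR none of the 8 members was called, against 3.15% of all genes tested called higher and 3.84% called lower, and limma voom called none either. At an unadjusted p below 0.05, 1 was higher and 1 lower. Of all genes, edgeR called 1418, DESeq2 1917 and limma voom 1341 in this comparison, both directions together. GLN1;2 differed by 0.56 ± 0.17 SE, adjusted p = 0.0703, and was called higher by DESeq2 (0.000944). GLN1;4 differed by -0.85 ± 0.36 SE, adjusted p = 0.193. The icpk libraries lay wholly above those with KCl for 1 member, the abundant one, and wholly below for 1, against 14.1% and 13.6% of all genes tested. The lower one passed with the 6 libraries of the comparison alone (0.0285) and without wild type KNO3 replicate 2 (0.0322). GLT1 differed by 0.22 ± 0.14 SE, adjusted p = 0.389, and GLN1;1 by -0.17 ± 0.19 SE, adjusted p = 0.648. GLU2 and GLU1 lay at -0.019 ± 0.13 and -0.016 ± 0.16, and GLN1;3 and GLN2 at 0.043 ± 0.13 and 0.25 ± 0.16, without passing.

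The make-up of each enzyme family was taken as shares of its summed level per kb in a library. GLT1 held 28.1 ± 3.72% of the glutamate synthase level in icpk, 38.0 ± 3.92% in wild type with KNO3 and 24.9 ± 2.94% in wild type with KCl. The wild type KNO3 libraries did not overlap with either other group (exact permutation test, two-sided, p = 0.1 for each comparison, the smallest that 3 against 3 allows). GLU1 held 60.7 ± 4.93%, 48.6 ± 5.63% and 63.4 ± 4.42% in the same order of groups. GLN1;1 held 9.58 ± 0.926% of the glutamine synthetase level in icpk, 21.5 ± 5.69% in wild type with KNO3 and 13.8 ± 1.06% in wild type with KCl, and GLN1;2 held 56.9 ± 6.19%, 46.8 ± 4.37% and 49.2 ± 3.74%. GLN2 held 29.0 ± 4.92% in icpk, 25.5 ± 2.04% in wild type with KNO3 and 31.2 ± 4.56% in wild type with KCl (exact permutation p = 0.4 for icpk against wild type with KNO3 and 0.1 for nitrate). The family totals moved less than the called members. Glutamine synthetase summed to 2316 ± 127 CPM per kb in icpk, 2126 ± 95.6 in wild type with KNO3 and 1815 ± 67.5 in wild type with KCl, and glutamate synthase to 354 ± 13.2, 389 ± 18.1 and 343 ± 15.7 CPM per kb. The exact permutation p for icpk against wild type with KNO3 was 0.3 for the first family and 0.1 for the second, and for nitrate 0.1 for each.

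**Figure D3:**
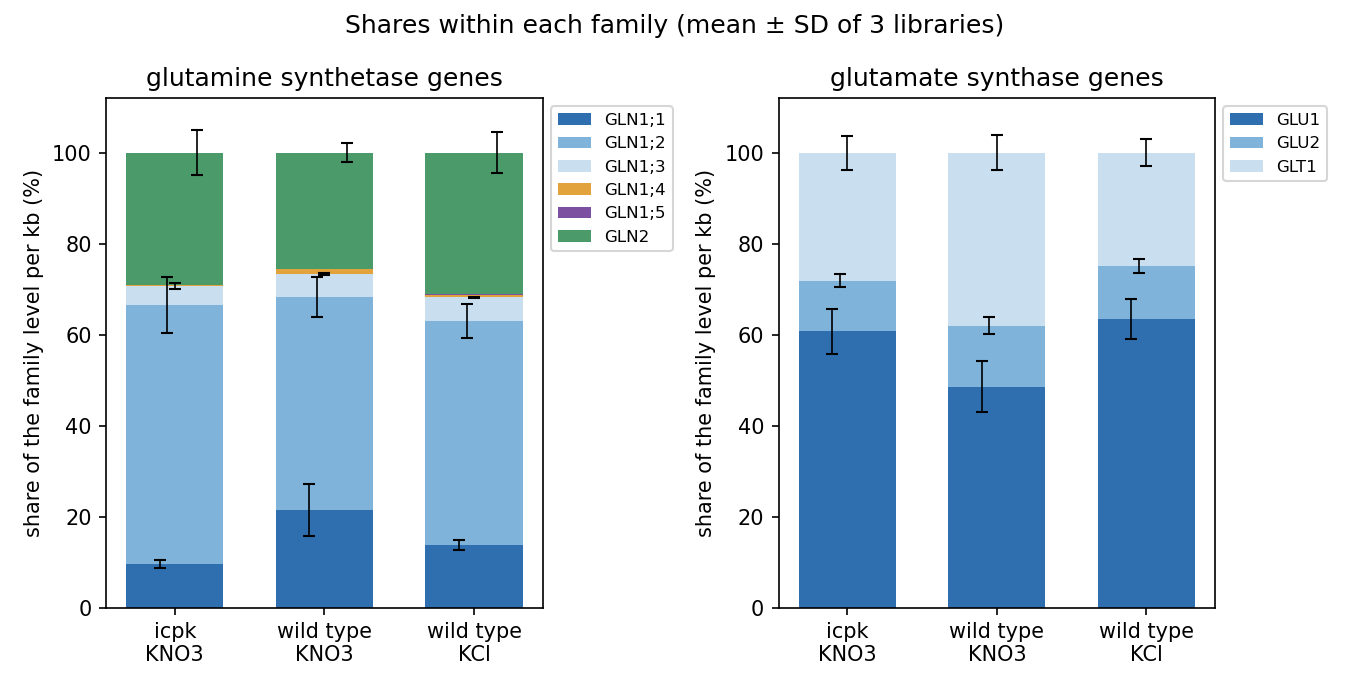
Mean share of each gene in the summed level per kb of its family (vertical axis, %), stacked, in icpk with KNO3, wild type with KNO3 and wild type with KCl. Thin bars at the top of the larger segments are the SD of 3 libraries. GLT1 takes its largest part of the glutamate synthases in wild type with KNO3, and GLN2 its smallest part of the glutamine synthetases there.

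Wild type KNO3 replicate 2 differed from replicates 1 and 3 across the members. It was the lowest of the 3 for all 4 members called lower in icpk, and the highest for GLN1;2, GLN2 and GLU1. Its summed shoot markers were 43782 CPM, against 33659 and 30021 CPM in replicates 1 and 3, and the part of that in these levels was not tested. Without that library GLN1;1 differed by 1.05 for nitrate and -1.23 for icpk, and GLT1 by 0.84 and -0.61.

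Likeness of pattern was measured as the Pearson correlation of log2 CPM over the 9 libraries, among 13984 other tested genes whose average log2 CPM was 3 or more. All points share the same 9 libraries, which fall into 3 groups, so the values are descriptions. Nearest to GLT1 were CYP86B1 (AT5G23190) at 0.985, NCRK (AT2G28250) at 0.980 and AT1G14340 at 0.974, where CYP86B1 is a cytochrome P450 of suberin synthesis. Nearest to GLN1;1 were AT3G59950 at 0.979, PID (AT2G34650) at 0.974 and AT4G19900 at 0.973, where PID is the PINOID kinase of auxin transport. Nearest to GLN1;4 were AT5G09300 at 0.980, SK42 (AT1G57870) at 0.973 and MUR3 (AT2G20370) at 0.968, where MUR3 is a galactosyltransferase of cell wall xyloglucan. Nearest to GLU2 were AT4G34180 at 0.973, ABCB4 (AT2G47000) at 0.972 and CID10 (AT3G49390) at 0.968, where ABCB4 is an auxin transporter of roots. Leaving out 1 library at a time, the lowest of these correlations were 0.967, 0.950, 0.946 and 0.949 for the 4 genes in turn.

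The genes that feed or use this cycle moved by larger steps in part. For icpk against wild type with KNO3, edgeR called 11.3% of all genes tested higher and 11.4% lower. For nitrate the shares were 3.56% and 2.39%. All 3 genes that turn nitrate into ammonium stood lower in icpk and rose with nitrate in wild type. The nitrate reductases NIA1 and NIA2 and the nitrite reductase NIR1 lay at -0.74 ± 0.18, -0.81 ± 0.15 and -0.79 ± 0.16 SE (log2) in icpk against wild type with KNO3, and at 1.41 ± 0.18, 1.81 ± 0.16 and 3.24 ± 0.18 for nitrate. NIA1 and NIA2 lost their icpk calls with replicate 3 of each group left out (0.0704 and 0.0586). Against wild type with KCl edgeR called all 3 higher in icpk with KNO3, by 0.67 to 2.45, and no member. Of the 3, 2 were called with the 6 libraries of the comparison alone, and 2 with replicate 3 of every group left out. DESeq2 and the 6 libraries alone each called 1 member there. Electrons for GLU1 and GLU2 come through ferredoxin, and 7 of the 8 genes listed for its supply were tested. The root-type genes FD3, RFNR1 and RFNR2 were 3 called lower in icpk (-0.79 ± 0.14, -1.02 ± 0.097 and -1.01 ± 0.14) and the 3 called higher with nitrate (2.22 ± 0.14, 3.05 ± 0.10 and 2.80 ± 0.15). The leaf ferredoxins FD1 (0.62 ± 0.18, adjusted p = 0.0302) and FD2 were called higher in icpk, FD2 by 0.80 ± 0.22, adjusted p = 0.0249, a call lost without replicate 1 (0.0578) or 3 (0.076) of icpk or replicate 1 (0.0992) or 3 (0.0847) of wild type with KNO3. With any 1 of those 4 libraries left out, 3 genes of the list were called, the root-type ones, so the FD1 call was lost there too. The shoot and root marker sums given above moved in the same directions, and their part was not tested.

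**Figure D4:**
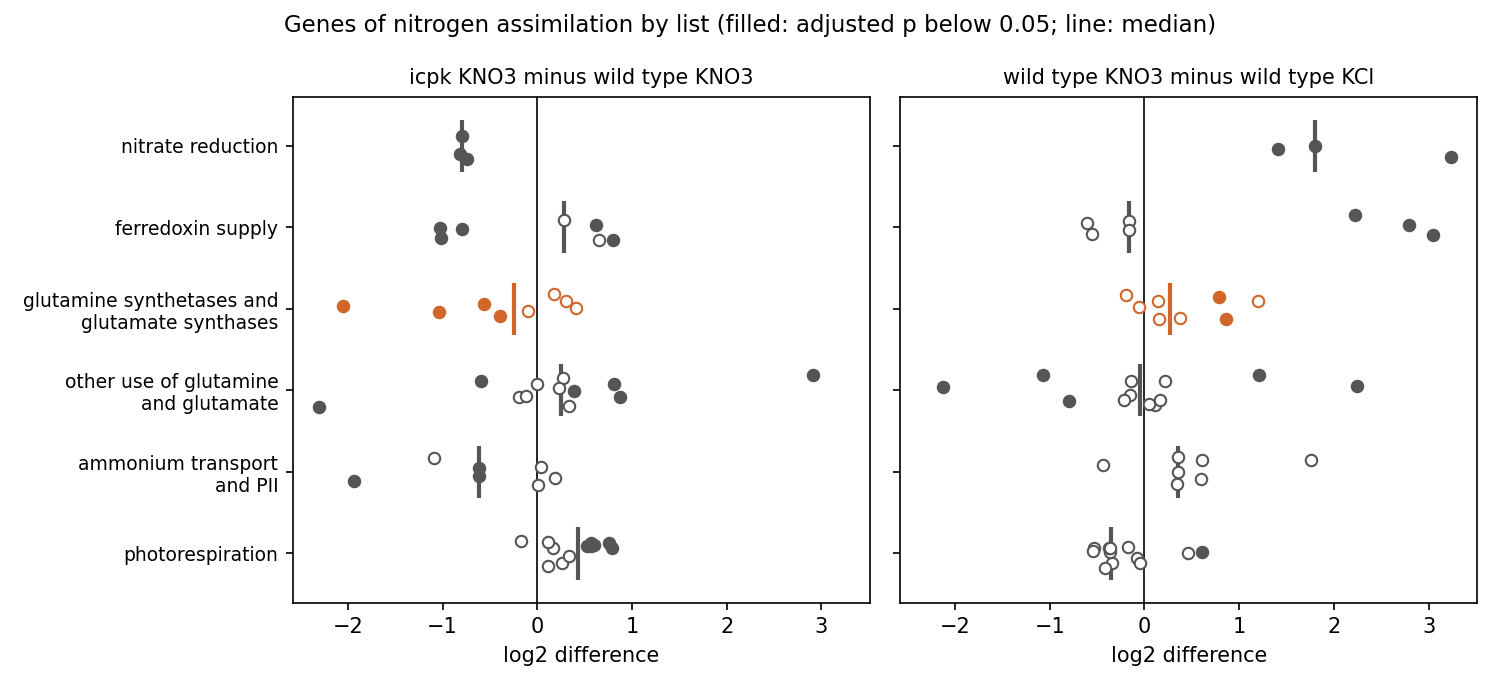
Log2 difference of each tested gene (points, horizontal axis) in 6 gene lists for icpk minus wild type with KNO3 (left) and wild type KNO3 minus KCl (right). Filled points passed an adjusted p below 0.05 and lines are list medians. The nitrate reduction genes all lie left of 0 in the left panel and right of 0 in the right one, and the glutamine and glutamate synthases spread to both sides in each.

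Of 12 other genes that use or release glutamine and glutamate, 4 were higher and 2 lower in icpk, and 2 were higher and 3 lower with nitrate. Of all genes tested, 11.3% were called higher and 11.4% lower in icpk, and 3.56% and 2.39% with nitrate. The glutamate dehydrogenases GDH1 and GDH2, which release ammonium from glutamate, stood higher in icpk (0.81 ± 0.11, adjusted p = 0.00138, and 0.88 ± 0.17, adjusted p = 0.00656) and lower with nitrate (-0.80 ± 0.11, adjusted p = 0.00171, and -1.07 ± 0.17, adjusted p = 0.00418). GDH3 went the opposite way, at -2.30 ± 0.44 in icpk and 2.24 ± 0.45 with nitrate. It was far less abundant, at 1.06 ± 0.188 CPM in icpk, 5.33 ± 2.88 CPM in wild type with KNO3 and 1.17 ± 0.270 CPM in wild type with KCl. GDH1 stood at 97.6, 55.5 and 96.4 CPM in the same order. The GDH3 nitrate call was lost without replicate 1 (0.0621) or 3 (0.0508) of wild type with KNO3. It was also lost without replicate 1 (0.0734) or 2 (0.0816) of wild type with KCl. The asparagine synthetase ASN1 stood higher in icpk (2.91 ± 0.44, adjusted p = 0.00203) and lower with nitrate (-2.12 ± 0.44, adjusted p = 0.0174). It had 60.0 ± 30.6 CPM in icpk, 7.92 ± 3.56 in wild type with KNO3 and 34.6 ± 11.6 with KCl. ASN2 rose with nitrate (1.21 ± 0.099, adjusted p = 3.34e-05). Without replicate 2 of wild type with KCl or replicate 1 or 3 of wild type with KNO3, 3 genes were called for nitrate. They were GDH1, GDH2 and ASN2, so the ASN1 nitrate call was lost there. The list medians were 0.25 and -0.044.

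All 7 genes of ammonium transport and of the PII sensor were tested. In icpk 3 transporters were lower, and none of the 7 higher by edgeR, DESeq2 or limma voom or at an unadjusted p below 0.05. The edgeR shares of all genes tested were 11.4% lower and 11.3% higher in icpk, and 2.39% and 3.56% with nitrate. AMT2;1 stood at -0.61 ± 0.16, adjusted p = 0.0206, a call lost without replicate 2 (0.0651) of icpk or replicate 1 (0.0579) or 3 (0.0692) of wild type with KNO3. AMT1;5 stood at -1.93 ± 0.51, adjusted p = 0.0221, a call lost without replicate 1 (0.0585) or 2 (0.0622) of icpk or replicate 3 (0.0785) of wild type with KNO3. Its level was very low, 0.470 ± 0.294 CPM in icpk and 1.89 ± 1.11 CPM in wild type with KNO3. AMT1;1 stood at -0.62 ± 0.18, adjusted p = 0.0333, a call lost without replicate 2 (0.0653) or 3 (0.0964) of icpk or replicate 1 (0.109) or 3 (0.112) of wild type with KNO3. With nitrate none of the 7 passed in edgeR or limma voom, 5 were higher and 1 lower at an unadjusted p below 0.05, and DESeq2 called 2 higher. The list medians were -0.61 for icpk and 0.36 for nitrate.

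Photorespiration, which releases the ammonium that GLN2 and GLU1 take back, had 12 of 13 genes tested. In icpk 6 were higher and none lower, also by DESeq2, limma voom and at an unadjusted p below 0.05 (list median 0.43). Among all genes tested, edgeR called 11.3% higher and 11.4% lower in icpk, and 3.56% and 2.39% with nitrate. The glycine decarboxylase subunits GLDP1 and GDCT stood at 0.79 ± 0.21, adjusted p = 0.0236, and 0.76 ± 0.21, adjusted p = 0.0287. The hydroxypyruvate reductase HPR1 and the glycolate oxidase GOX2 stood at 0.60 ± 0.17, adjusted p = 0.0275, and 0.53 ± 0.15, adjusted p = 0.0322. All 4 lost their calls, and the count fell to 0, without icpk replicate 1, icpk replicate 3, wild type KNO3 replicate 1 and wild type KNO3 replicate 3, with adjusted p of up to 0.0975 for GLDP1, 0.111 for GDCT, 0.104 for HPR1 and 0.119 for GOX2. Without wild type KCl replicate 3 the count was 3 and GOX2 was not called (0.0504). With nitrate, 1 of the 12 was called, the 2-oxoglutarate transporter DIT1, which brings the carbon skeleton that glutamate synthase needs into the plastid (0.61 ± 0.13, adjusted p = 0.0223). That call was lost without replicate 3 (0.0622) of wild type with KNO3 or replicate 1 (0.0939) or 3 (0.0738) of wild type with KCl. No photorespiration gene was called lower with nitrate by edgeR, DESeq2 or limma voom, and 4 were lower at an unadjusted p below 0.05 (list median -0.35). The 15 shoot markers had median log2 differences of 0.53 for icpk and -0.46 for nitrate, and their part in these differences was not tested.

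The authors' deposited table of their own nitrate comparison called 4 members higher and none lower. Its log2 changes, in the authors' deposited table, were 0.80 with an adjusted p of 0.000235 for GLN1;1, 0.99 with an adjusted p of 0.00338 for GLN1;4, 0.38 with an adjusted p of 0.0351 for GLU2 and 0.78 with an adjusted p of 1.47e-09 for GLT1. The authors' deposited table for icpk called the same 4 lower and 1 member higher, GLN1;2, with a log2 change of 0.38 with an adjusted p of 0.0242. The authors' deposited table thus called in addition the 3 differences that DESeq2 called here and edgeR did not, 2 with nitrate and 1 in icpk.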

How the data were processed

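Counts per gene were measured by RNA sequencing in 9 libraries from a kit that does not mark strand, per the labels' protocols. The authors deposited raw counts per gene for each library. The submitters' processing notes name TopHat, HTSeq, DESeq2 and build TAIR10. Versions, strand setting and annotation release were not given in the sources used here. Reads from overlapping antisense genes cannot be told apart in a kit without strand. The authors' deposited tables of 2 comparisons hold, per the file headers, a base mean signal, log2 fold changes with errors, a test score and p-values. The 5 summary rows of each count file, 26.7% to 84.3% of records, were left out.

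Here, filterByExpr (minimum count 10) kept 20288 genes. Counts were TMM-normalized and tested with edgeR 4.0.16 (R 4.3.3, quasi-likelihood test, a mean per group, all 9 libraries in 1 fit, Benjamini-Hochberg adjustment over all genes tested, calls at an adjusted p below 0.05). An approximate SE was taken as the size of the log2 difference over the root of its F. The common biological coefficient of variation was 15.1%. Shares and family totals were compared by exact permutation over libraries. Alternatives used DESeq2 1.42.0 and limma 3.58.1, and the pipeline was tested on simulated data. Exon lengths and sequences came from the RefSeq annotation of TAIR10.1, which holds all 9 genes, and coding sequences were aligned with Biopython 1.88. Since the files name another build, coordinates are left out. The longest coding transcript stood for each gene.

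The titles number replicates from 1 to 3 in each group. The deviations from group means correlated, for libraries of the same number, from 0.12 to 0.31 between icpk and wild type with KNO3, and for libraries of different number from -0.20 to 0.08. All 3 pairs being over 0.1, the numbers were taken to pair these libraries, weak as these values are. The main test kept no block, and the blocked value stands beside the icpk results of the members that it changes. The members and lists were chosen with earlier results of these data known. Besides the members and kinases, the genes named were up to 4 called genes per list and main comparison, by smallest p, and the 3 most alike in pattern to each member called. FD1 was named beyond that rule after its values were seen.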

Additional observations from a re-analysis of the deposited data

How the results depend on the processing

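The members called numbered 2 for nitrate, 4 for icpk against wild type with KNO3 and 0 for icpk against wild type with KCl. With DESeq2 the counts for nitrate and for icpk against KCl were 4 and 1, and the last was 1 with the 6 libraries of the comparison alone. Without replicate 3 of every group, whose libraries carry later accessions, the first 2 counts were 1 and 2, and all genes called were 677, 1408 and 476, against 1207, 4599 and 1418. Leaving out 1 library at a time, the members called ran from 1 to 3, 2 to 4 and 0 to 1, and all genes called from 598 to 2077, 2461 to 4403 and 689 to 1512. The cause was not tested, beyond the fewer libraries. For nitrate, 1 member was called without replicate 1 or 2 of wild type with KCl or replicate 1 or 3 of wild type with KNO3, with 714, 617, 598 and 710 of all genes, and 2077 of all genes were called without replicate 2 of wild type with KNO3. For icpk, 2 members and 2461 of all genes were called without replicate 1 of wild type with KNO3, 2844 of all genes without its replicate 3, and 3030 without icpk replicate 3. Against KCl, 850 of all genes were called without icpk replicate 3, and 689 and 731 without replicates 2 and 3 of wild type with KCl.

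No called member changed sign under any alternative run. Differences near 0 did for icpk against wild type with KCl: -0.10 to 0.15 for GLN1;3, -0.081 to 0.072 for GLU1 and -0.11 to 0.060 for GLU2 with 1 library left out, and -0.067 for GLN1;3 and 0.092 for GLU2 without replicate 3 of every group. For nitrate, GLN2 ran from -0.14 to 0.039. The GLN2 share of glutamine synthetase for icpk against wild type with KCl, -2.16 points, ran from -4.24 to 0.55. The nitrate difference of the GLT1 share ran from 11.4 to 15.3 points, and the icpk one from -12.1 to -8.28.

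With replicate number as a block, the icpk comparison called 3 members, GLU2 being lost, and no other member's call changed there. For nitrate, correlations ran from -0.04 to 0.30 for the same number and from -0.32 to 0.23 for different numbers. These values do not settle whether the numbers pair those libraries. The block called 3 members for nitrate, adding GLN1;4 (adjusted p = 0.0412). RLE size factors, limma voom and leaving out organelle genes changed no member's call. Among the other genes named, leaving out replicate 3 of every group ended the nitrate calls of GDH3, ASN1 and DIT1. For icpk it ended those of NIA1, NIA2, GDH2, GDH3, FD1, FD2 and all transporters and photorespiration genes named. The 6 libraries alone ended the icpk calls of FD1, AMT1;1, GDCT and GOX2, and limma voom the nitrate call of GDH3. Among the members, depth kept only GLN1;5 from being tested, with 2 to 12 counts per library. Among the other genes named, AMT1;5 was about as low, at 0.470 CPM in icpk and 0.505 CPM in wild type with KCl.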
